A study of Homo sapiens with 18 samples.

Results

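Heparan sulfate proteoglycans and the enzymes that modify their sugar chains were measured in a pair of established triple-negative breast cancer (TNBC) cell lines, HCC1806 and HCC1395. The family was taken as the transcript clusters, the array's unit for a gene or a part of one, whose platform symbol was *GPC1*, *GPC3*, *GPC4*, *GPC6*, *SDC1*, *SDC2*, *SDC4*, *HS6ST1*, *HS6ST2* or *NDST1*. All 10 genes were found, in 11 of 53617 transcript clusters, since *GPC1* has 2 (16893169 and 16910150). The members were selected on the GapmeR contrasts, in which *HS6ST2* in HCC1806 and *GPC6* in HCC1395 were lower, so the values of the 10 genes in comparisons of GapmeR with control are a description and carry no test. Cells of each line had received *PART1* GapmeR 1, *PART1* GapmeR 2 or a negative control GapmeR for 48 h. A GapmeR is an antisense oligonucleotide with a central DNA stretch that lets RNase H cut the RNA it binds, and *PART1* is a long non-coding RNA (lncRNA). The 6 groups had 3 Affymetrix Human Gene 2.0 ST arrays each, 18 in all. Both lines are tumour cells kept in culture, and each group is 1 line under 1 oligonucleotide, so what holds for these lines need not hold for other tumours.

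Heparan sulfate is a long, sulfated sugar chain that cells attach to a few core proteins. Glypicans hold their chains at the cell surface through a lipid anchor, and syndecans span the membrane. The chain is polymerised in the Golgi and then edited: NDST enzymes replace acetyl groups by sulfate, and HS6ST enzymes add sulfate at the 6-O position of glucosamine. The pattern of sulfates sets which growth factors, Wnt ligands, Hedgehog proteins and chemokines are bound. Epithelial cells carry much syndecan-1 and mesenchymal cells syndecan-2, and both families are widely studied in breast tumours.

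The values, log2 signals after the authors' robust multi-array averaging (RMA), ran between 0.28 and 13.70 with array medians of 4.04 to 4.13. No detection call came with them, so a signal near the array median cannot be told from background, and a fold against such a group has no known floor. Replicates carry numbers, and no source read here states that each was a separate culture. The p-values therefore measure only how arrays of a group scatter, in part perhaps for technical reasons, and the number of arrays limits the precision. As a check of the labels, *PART1* gave log2 differences of −0.60 and −0.66 (SE 0.20 each) with GapmeR 1 and GapmeR 2 in HCC1395, and of 0.09 and 0.28 (SE 0.18 each) in HCC1806. On the HCC1806 control arrays *PART1* read 3.88, 3.69 and 3.94, each under its array's median. No decrease was seen there, so *PART1* does not bear out the GapmeR labels in HCC1806. Whether a decrease could have been seen at such signals was not tested. The groups of HCC1806 below are those of the labels. Of 7 measured epithelial and basal markers, 7 exceeded the array median on all 9 HCC1806 arrays and 6 on all 9 HCC1395 arrays. *EPCAM* (log2 difference 6.44), *KRT19* (5.32), *KRT5* (3.96), *KRT18* (3.15) and *EGFR* (0.62) were higher in HCC1806. *KRT8* (−0.01; limma, adjusted p = 0.984) and *KRT14* (0.32; limma, adjusted p = 0.298) of the same list did not pass. The mesenchymal markers *FN1* (−4.58), *VIM* (−4.19) and *ZEB1* (−4.15) were lower in HCC1806 than in HCC1395. Of 4 measured hormone receptor and HER2 markers, 3 exceeded the array median on all HCC1806 arrays and 1 on all HCC1395 arrays. Less RNA per cell and fewer cells of a kind cannot be told apart in such bulk samples.

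The RefSeq promoter table for GRCh38.p14 held 8 of the 10 genes. Shown are the 250 bases before the start of the genes on which the results turn: *GPC6* at chr13:93226557-93226806 (+ strand) and *GPC4* at chrX:133415490-133415739 (- strand), which were lower in HCC1806; *SDC1* at chr2:20225476-20225725 (- strand) for the first of its 2 starts and *HS6ST1* at chr2:128318869-128319118 (- strand), which were higher in HCC1806; and *HS6ST2* at chrX:132961371-132961620 (- strand), which was low on the HCC1806 arrays labelled GapmeR. Each runs 5′ to 3′ on the gene's strand. Capitals mark the GC box letters GGGCGG or CCGCCC, the E-box letters CAGGTG or CACCTG, and TATAAA or TTTATA.
*GPC6*: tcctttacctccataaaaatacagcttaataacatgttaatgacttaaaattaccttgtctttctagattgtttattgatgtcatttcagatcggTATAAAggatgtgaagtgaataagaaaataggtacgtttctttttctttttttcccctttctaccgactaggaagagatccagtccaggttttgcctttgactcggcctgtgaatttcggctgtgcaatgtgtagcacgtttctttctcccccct
*GPC4*: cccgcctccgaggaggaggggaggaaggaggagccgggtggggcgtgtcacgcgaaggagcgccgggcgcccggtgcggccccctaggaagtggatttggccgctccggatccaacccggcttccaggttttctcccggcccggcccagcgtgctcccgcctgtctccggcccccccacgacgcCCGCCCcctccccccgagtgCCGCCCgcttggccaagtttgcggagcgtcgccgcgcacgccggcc
*SDC1*: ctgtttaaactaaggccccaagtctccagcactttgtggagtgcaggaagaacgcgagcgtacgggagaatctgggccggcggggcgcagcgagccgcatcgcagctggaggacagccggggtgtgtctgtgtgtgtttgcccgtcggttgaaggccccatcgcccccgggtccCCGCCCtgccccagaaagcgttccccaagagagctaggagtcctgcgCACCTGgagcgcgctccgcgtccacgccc
*HS6ST1*: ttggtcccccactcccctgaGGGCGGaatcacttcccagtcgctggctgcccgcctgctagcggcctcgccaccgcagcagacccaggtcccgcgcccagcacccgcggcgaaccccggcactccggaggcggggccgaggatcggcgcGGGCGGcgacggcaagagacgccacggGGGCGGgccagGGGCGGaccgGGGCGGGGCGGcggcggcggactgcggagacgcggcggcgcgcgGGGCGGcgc
*HS6ST2*: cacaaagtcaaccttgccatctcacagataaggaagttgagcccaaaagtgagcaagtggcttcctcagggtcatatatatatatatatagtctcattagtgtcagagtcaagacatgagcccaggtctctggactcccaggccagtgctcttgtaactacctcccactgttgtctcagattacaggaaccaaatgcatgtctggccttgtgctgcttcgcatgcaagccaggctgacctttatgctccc

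The *GPC6* stretch was 37.6% G or C with 6 CG dinucleotides, and *HS6ST2* was 48% with 1, against a median of 58% and 11 over 35116 promoters of the table. *GPC4* (76%, 32 CG), *SDC1* (66.4%, 23 CG) and *HS6ST1* (80.4%, 40 CG) lay above that median. Searched on both strands, the GC box was found in 42.6% of all promoters, CAGGTG in 17.5% and TATAAA in 10.7%. *GPC6* held 1 TATAAA and no GC box, *GPC4* held 2 GC boxes, *SDC1* held 1 GC box and 1 CAGGTG, and *HS6ST1* held 7 GC boxes. *HS6ST2* held none of the 3 motifs in this window. The *SDC1* window of 250 bases that ends just before the second start was 75.2% G or C with 1 GC box and no CAGGTG. A match describes these letters only.

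The first question was how the family differs between the lines, which was asked on the control arrays. *GPC6* and *HS6ST2* were picked from contrasts that used the same control arrays, so their line differences are a description and carry no test. The RNA of several core protein genes differed between the lines, while that of *SDC4*, *SDC1* and *GPC1* lay above the array median on all arrays of both. *GPC4* and *SDC2* were lower in HCC1806, as was *GPC6* by its values, and *SDC1* and the sulfotransferase *HS6ST1* were higher. The differences of *GPC4*, *SDC2*, *SDC1* and *HS6ST1* passed limma's test over all transcript clusters (adjusted p under 0.05 and at least 1.6-fold). That makes 4 of the 9 family transcript clusters other than those of *GPC6* and *HS6ST2*, where 20.5% of all 53617 and 29.2% of the 16098 with a symbol passed. The median log2 difference was −0.08 over the family and −0.00 over all transcript clusters.

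Among the glypicans, *GPC6*, which promotes Hedgehog signalling during growth of the long bones, was high in 1 line alone. On control arrays its log2 signal read 3.44, 4.20 and 4.0 in HCC1806 and 9.63, 9.66 and 9.82 in HCC1395. The HCC1806 arrays lay around the array median and the HCC1395 arrays far above it, without overlap. The log2 signals differed by −5.82 ± 0.24 (SE, n = 3 each), and no fold is given against signals at the array median, which holds for *GPC4* and *SDC2* as well. *GPC4*, a glypican that binds Wnt ligands and is released by astrocytes, read 3.86, 4.31 and 4.94 in HCC1806 and 8.14, 8.46 and 8.36 in HCC1395. Its groups did not overlap either, with a log2 difference of −3.95 ± 0.29 (SE, n = 3 each; limma, adjusted p = 1.38e-08). The spread of *GPC4* was wider in HCC1806 (SD 0.54) than in HCC1395 (SD 0.16).

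*GPC3*, which restrains Hedgehog signalling and is lost in Simpson-Golabi-Behmel overgrowth syndrome, sits next to *GPC4* on chromosome X. It read 3.92, 4.04 and 4.42 in HCC1806 and 3.94, 3.66 and 4.07 in HCC1395, near the array median in both. The groups overlapped, and the log2 difference of 0.24 (95% interval −0.10 to 0.57; limma, adjusted p = 0.332) did not pass. Of these neighbours *GPC4* passed the test and *GPC3* did not. *GPC1*, a glypican that acts as a co-receptor for fibroblast growth factors, has 2 transcript clusters. Cluster 16893169 read 5.91, 6.07 and 6.24 in HCC1806 and 6.32, 6.41 and 6.71 in HCC1395, a difference of −0.40 (95% interval −0.73 to −0.08; limma, adjusted p = 0.059). It lay lower in HCC1806 without overlap but short of the threshold. Cluster 16910150 read 4.70, 5.07 and 5.03 in HCC1806 and 4.91, 5.15 and 4.89 in HCC1395, a difference of −0.05 (95% interval −0.38 to 0.28; limma, adjusted p = 0.861). Its groups overlapped, and the 2 clusters of *GPC1* were not tested against each other.

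The syndecans split by member. *SDC1* (syndecan-1), the main syndecan of epithelia, read 7.95, 8.01 and 8.08 on the HCC1806 control arrays and 6.55, 6.25 and 6.47 on those of HCC1395. Every HCC1806 array was above every HCC1395 array, and the log2 difference was 1.59 ± 0.13 (SE, n = 3 each), or 3.01-fold (limma, adjusted p = 4.77e-08). *SDC2* (syndecan-2), the syndecan of mesenchymal cells, went the other way. It read 3.91, 5.06 and 4.17 in HCC1806 and 7.79, 7.98 and 8.14 in HCC1395, a log2 difference of −3.59 ± 0.26 (SE, n = 3 each; limma, adjusted p = 1.25e-08). *SDC4* (syndecan-4), a widespread syndecan of focal adhesions, read 10.11, 9.99 and 10.07 in HCC1806 and 10.17, 10.10 and 10.14 in HCC1395. Its signal was high in both lines, with overlapping groups and a difference of −0.08 (95% interval −0.28 to 0.13; limma, adjusted p = 0.637). The interval excludes a difference of 1.6-fold for *SDC4*.

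**Figure D1:**
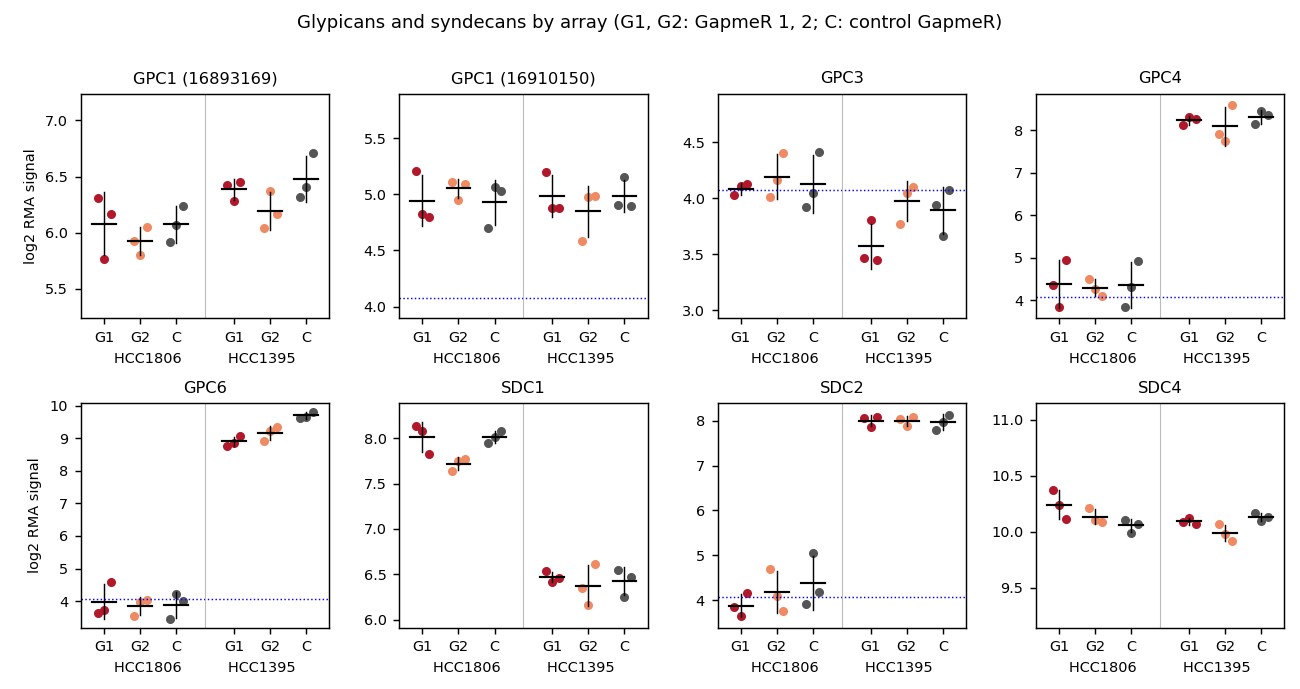
Log2 RMA signal of the 8 glypican and syndecan transcript clusters on each of the 18 arrays (points), with the group mean (bar) and SD (line), for GapmeR 1, GapmeR 2 and control in HCC1806 (left) and HCC1395 (right); the dotted line, where in range, is the median of the array medians, and each panel has its own axis range. GPC6, GPC4 and SDC2 lie near the dotted line in HCC1806 and at 7.75 or above in HCC1395, and SDC1 is higher in HCC1806.

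Of the enzymes, *HS6ST1*, the more widely expressed 6-O-sulfotransferase, read 6.09, 5.87 and 6.33 on the HCC1806 control arrays and 5.28, 5.09 and 5.09 on those of HCC1395. It was higher in HCC1806 without overlap, by 0.94 ± 0.15 on the log2 scale (SE, n = 3 each), or 1.92-fold (limma, adjusted p = 1.21e-04). *HS6ST2*, a 6-O-sulfotransferase with a narrower tissue range, read 5.08, 4.75 and 4.73 in HCC1806 and 4.44, 4.39 and 4.55 in HCC1395. The HCC1806 controls lay above the HCC1395 controls by 0.39 (SE 0.18), without overlap, as a description. Taken over all groups of a line the *HS6ST2* difference was −0.04. That mean takes in the HCC1806 GapmeR arrays on which the gene was picked as lower, so it is no check of the control arrays. *NDST1*, which starts the sulfation of the chain, read 6.88, 6.91 and 6.82 in HCC1806 and 6.95, 7.09 and 7.02 in HCC1395. The difference of −0.15 (95% interval −0.37 to 0.07; limma, adjusted p = 0.355) was short of the threshold, and its interval excludes 1.6-fold.

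**Figure D2:**
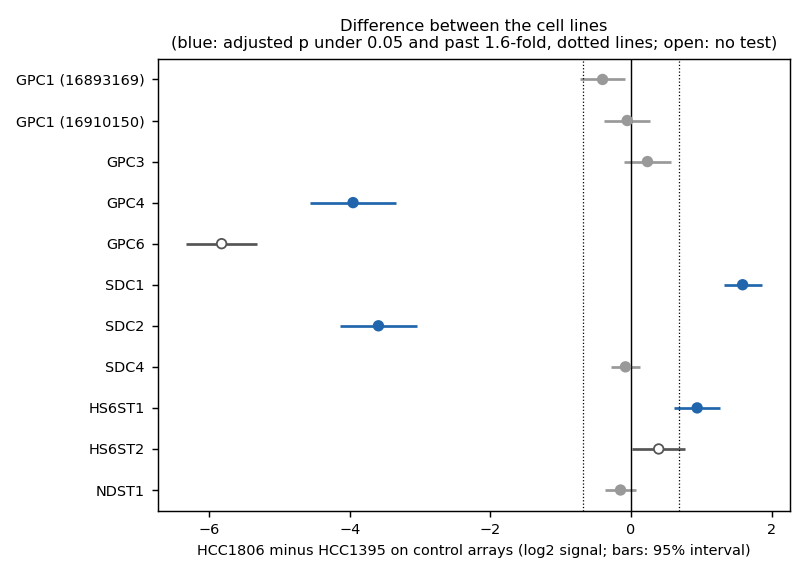
Difference in log2 signal between HCC1806 and HCC1395 on control arrays (points) with 95% intervals (bars) for the 11 transcript clusters; blue points passed limma's test, open points (GPC6, HS6ST2) carry no test and dotted lines mark 1.6-fold. GPC6 (−5.82), GPC4 (−3.95) and SDC2 (−3.59) lie to the left, SDC1 (1.59) and HS6ST1 (0.94) to the right.

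The second question was what the family did 48 h after a *PART1* GapmeR. At 1.6-fold and an unadjusted p under 0.05, the threshold used in the study, 1 of 11 family transcript clusters was past it with GapmeR 1 in each line, *HS6ST2* in HCC1806 and *GPC6* in HCC1395. With GapmeR 2 it was 1 in HCC1806 (*HS6ST2*) and 0 in HCC1395, and with both GapmeRs together 1 and 0. Over all transcript clusters these shares were 1.26% and 0.955% with GapmeR 1, 1.04% and 1.06% with GapmeR 2, and 0.707% and 0.720% with both, for HCC1806 and HCC1395 in that order. Nothing is read from the family's counts, because these comparisons chose its leading genes. By limma with Benjamini-Hochberg adjustment, 0 of 53617 transcript clusters passed with both GapmeRs, whichever the line. Without adjustment, a p under 0.05 was reached by 2821 of them in HCC1806 and by 3514 in HCC1395, and an ordinary linear model with adjustment gave 0 as well.

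*HS6ST2* was the family gene that stood lower in HCC1806. Its log2 signal was 3.90, 3.66 and 4.53 under the label GapmeR 1, 4.15, 4.0 and 4.24 under GapmeR 2, and 5.08, 4.75 and 4.73 on control arrays. All 6 GapmeR arrays lay under all 3 control arrays, as did 1.36% of all transcript clusters, and most lay near the array median. The log2 differences were −0.82 with GapmeR 1 and −0.72 with GapmeR 2 (SE 0.21 each), nominally 1.77-fold and 1.65-fold. At signals near the array median these folds have no known floor, and they are given only to place the gene against the threshold. Without control replicate 1, the highest of the 3, the difference with both GapmeRs was −0.66 in place of −0.77 and under 1.6-fold, and that with GapmeR 2 was −0.61. Without its own replicate 2, GapmeR 1 gave −0.64 and GapmeR 2 −0.66, which are also under 1.6-fold. In HCC1395, *HS6ST2* read 4.25, 4.23 and 4.12 with GapmeR 1, 4.63, 4.25 and 4.51 with GapmeR 2 and 4.44, 4.39 and 4.55 on control arrays. The GapmeR 1 arrays lay under the controls (−0.26, SE 0.12) and the GapmeR 2 arrays overlapped them (0.01, SE 0.12).

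*GPC6* was the family gene that stood lower in HCC1395. It read 8.77, 8.86 and 9.07 with GapmeR 1, 8.92, 9.23 and 9.34 with GapmeR 2 and 9.63, 9.66 and 9.82 on control arrays. All 6 GapmeR arrays lay under all 3 control arrays, as did 1.52% of all transcript clusters, at signals well above the array median. The log2 differences were −0.80 with GapmeR 1 and −0.54 with GapmeR 2 (SE 0.14 each). For both together the difference was −0.67 (SE 0.12), or 1.59-fold, which is just outside the threshold of 1.6-fold, while *HS6ST2* with GapmeR 2 in HCC1806, at 1.65-fold, is just inside it. With 1 array left out the *GPC6* value for both ran between −0.61 and −0.71, across the threshold. In HCC1806, where *GPC6* lay near the array median, it read 3.64, 3.72 and 4.59 with GapmeR 1, 3.55, 3.96 and 4.04 with GapmeR 2 and 3.44, 4.20 and 4.0 on control arrays. The groups overlapped there, with differences of 0.10 and −0.03 (SE 0.28 each).

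**Figure D3:**
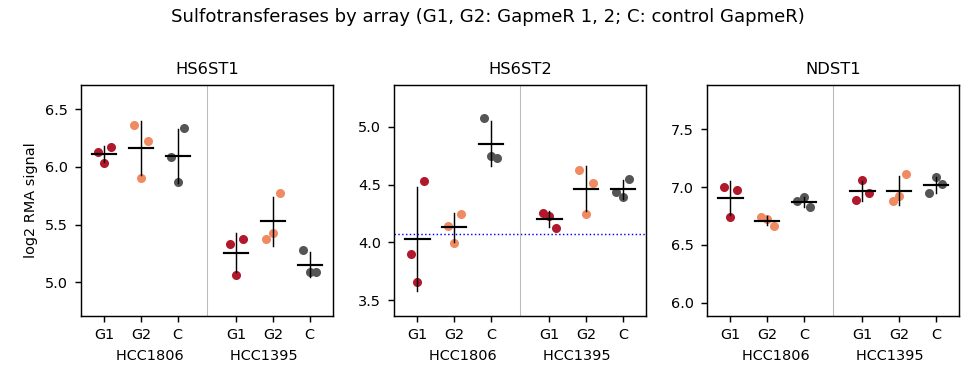
Log2 RMA signal of HS6ST1, HS6ST2 and NDST1 on each of the 18 arrays (points), with the group mean (bar) and SD (line), for GapmeR 1, GapmeR 2 and control in HCC1806 (left) and HCC1395 (right); the dotted line, where in range, is the median of the array medians. The 6 HS6ST2 arrays labelled GapmeR in HCC1806 read 3.66 to 4.53, all under the controls at 4.73 to 5.08.

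The log2 differences of the other glypicans with either GapmeR ran between −0.32 and 0.12 over both lines. *GPC4* in HCC1395 read 8.12, 8.31 and 8.27 with GapmeR 1, 7.91, 7.75 and 8.61 with GapmeR 2 and 8.14, 8.46 and 8.36 on control arrays, with log2 differences of −0.09 and −0.23 (SE 0.21 each). Its groups overlapped. *GPC6*, also high in HCC1395, was picked for its lower GapmeR arrays there, and *GPC4* and *GPC6* were not tested against each other. *GPC3* in HCC1395 read 3.47, 3.80 and 3.44 with GapmeR 1, 3.77, 4.05 and 4.10 with GapmeR 2 and 3.94, 3.66 and 4.07 on control arrays, with differences of −0.32 and 0.08 (SE 0.16 each). The GapmeR 1 group overlapped the controls through 1 array. *GPC1* cluster 16893169 in HCC1395 was at −0.09 and −0.29 (SE 0.14 each), and its other cluster at 0.00 and −0.13 (SE 0.15 each). For *GPC1*, *GPC3* and *GPC4* in HCC1806 the differences with either GapmeR ran between −0.15 and 0.12. The SE of *GPC4* was 0.31 there with each GapmeR, so a shift of 1.6-fold is not excluded.

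Of the syndecans, *SDC1* in HCC1806 read 8.13, 8.08 and 7.82 under the label GapmeR 1, 7.64, 7.75 and 7.77 under GapmeR 2 and 7.95, 8.01 and 8.08 on control arrays. The GapmeR 2 arrays lay under the controls (−0.29, SE 0.13), and the GapmeR 1 arrays overlapped them (0.00, SE 0.13). *SDC2* in HCC1806 read 3.84, 3.64 and 4.15 with GapmeR 1, 4.69, 4.09 and 3.76 with GapmeR 2 and 3.91, 5.06 and 4.17 on control arrays, near the array median. Its differences of −0.51 and −0.20 came with an SE of 0.31 each and overlapping groups, and 1 control array at 5.06 stood apart. In HCC1395, where *SDC2* was high, its differences were 0.03 and 0.04 (SE 0.13 each).

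*SDC4* was the steadiest of the syndecans, with an SD of 0.03 to 0.13 per group. On arrays labelled GapmeR 1 and GapmeR 2 in HCC1806 it read 10.37, 10.24 and 10.12, and 10.21, 10.11 and 10.09, against 10.11, 9.99 and 10.07 on control arrays. In HCC1395 it read 10.08, 10.12 and 10.07 with GapmeR 1, 10.07, 9.98 and 9.92 with GapmeR 2 and 10.17, 10.10 and 10.14 on control arrays. The differences were 0.18 and 0.08 (SE 0.12 each) in HCC1806 and −0.04 and −0.15 (SE 0.10 each) in HCC1395. Its GapmeR 1 arrays lay above the controls in HCC1806 and its GapmeR 2 arrays under them in HCC1395, while the other GapmeR groups overlapped the controls.

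Among the enzymes, *HS6ST1* in HCC1395 read 5.33, 5.06 and 5.37 with GapmeR 1, 5.38, 5.43 and 5.78 with GapmeR 2 and 5.28, 5.09 and 5.09 on control arrays. All 3 GapmeR 2 arrays lay above the controls (0.38, SE 0.14) and those of GapmeR 1 overlapped them (0.10, SE 0.14). In HCC1806, *HS6ST1* was at 0.02 and 0.07 (SE 0.16 each), with overlapping groups. *NDST1* read 7.0, 6.74 and 6.98 with GapmeR 1, 6.74, 6.72 and 6.67 with GapmeR 2 and 6.88, 6.91 and 6.82 on control arrays in HCC1806. The GapmeR 2 arrays lay under the controls (−0.16, SE 0.12), and in HCC1395 both differences were −0.05 (SE 0.11 each). These separations of 1 GapmeR group from the controls, like those of *HS6ST2*, *SDC1* and *SDC4*, have no share over all transcript clusters beside them. They are descriptions, and nothing is read from them. Over the 11 transcript clusters the median difference with both GapmeRs was −0.02 in HCC1806 and −0.09 in HCC1395, against 0.01 and 0.00 over all transcript clusters.

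**Figure D4:**
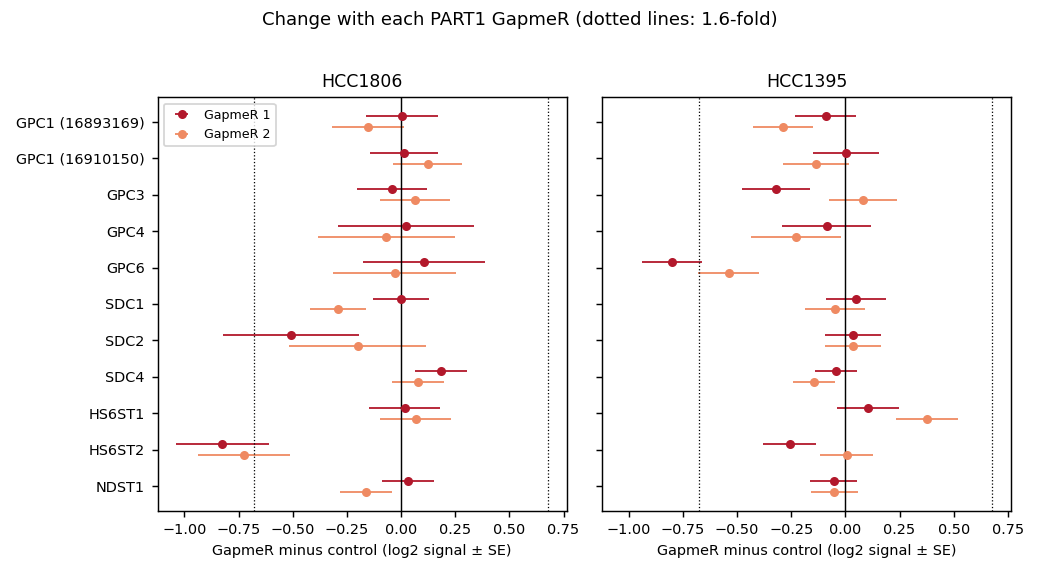
Log2 difference from the control arrays with GapmeR 1 and GapmeR 2 (points) and its SE (bars) for the 11 transcript clusters in HCC1806 (left) and HCC1395 (right); dotted lines mark 1.6-fold. HS6ST2 is at −0.82 and −0.72 in HCC1806, and GPC6 at −0.80 and −0.54 in HCC1395.

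The GapmeRs were then compared with each other, in the fit of each line's 9 arrays, so that the control arrays entered the estimate of the spread but not the difference. None of the 11 transcript clusters passed limma's adjusted test in either line. Over all 53617 a single test passed (1 in HCC1806, 0 in HCC1395), with 3164 and 2491 at an unadjusted p under 0.05. For *HS6ST2* in HCC1806, GapmeR 2 minus GapmeR 1 was 0.10 (SE 0.21). For *GPC6* in HCC1395 it was 0.26 (SE 0.14), with all 3 GapmeR 2 arrays above the mean of GapmeR 1. Both genes were picked for low signals on these GapmeR arrays. Their differences are therefore a description, and their part in the count above carries no test. The furthest apart was *GPC3* in HCC1395, at 0.40 (95% interval 0.05 to 0.76; limma, adjusted p = 0.999). With 3 arrays per group the interval of *GPC3* ran from 0.05 to 0.76 on the log2 scale. A p above the threshold thus does not show that the oligonucleotides acted alike.

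The difference with both GapmeRs was set between the lines as well, as HCC1806 minus HCC1395. It was −0.65 (SE 0.22) for *HS6ST2* and 0.71 (SE 0.29) for *GPC6*, as a description, since the genes were picked for these contrasts. *SDC4* came next relative to its SE, at 0.23 (SE 0.12), and *SDC2* was at −0.39 (SE 0.32). The other 7 transcript clusters ran between −0.20 and 0.14. By limma 0 of 53617 transcript clusters passed the adjusted test of this difference, with 3540 (6.60%) at an unadjusted p under 0.05.

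Other genes were taken from 11 lists that covered heparan sulfate metabolism, its core proteins and partners, growth factor signalling, chondroitin sulfate and chromosomal neighbours. The lists held 141 genes, of which 103 had a transcript cluster with a symbol. On control arrays 13 of them were higher and 30 lower in HCC1806, by the same test (adjusted p under 0.05 and 1.6-fold), beside 14.4% and 14.8% of all transcript clusters with a symbol. The chondroitin sulfate list held 3 of the higher and 7 of the lower genes, and the neighbours at Xq26 held 3 of the lower. The median log2 difference was −0.18 over the 103 and −0.00 over all transcript clusters with a symbol. With both GapmeRs together, none of the 103 was past 1.6-fold at an unadjusted p under 0.05 in either line, where 0.236% of transcript clusters with a symbol were past it in HCC1806 and 0.180% in HCC1395.

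Of 8 other core proteins, 2 were higher and 3 lower in HCC1806, with a list median of −0.50. *CD44*, a hyaluronan receptor whose longer isoforms carry heparan sulfate, averaged 11.19 ± 0.27 in HCC1806 and 8.61 ± 0.06 in HCC1395 (SD, n = 3 each), a log2 difference of 2.58 (limma, adjusted p = 2.65e-09). *NRP1* (neuropilin-1), a semaphorin and VEGF co-receptor that can carry a chain, averaged 7.18 ± 0.65 and 10.67 ± 0.05 in the same order, a difference of −3.49 (limma, adjusted p = 9.05e-08). *SRGN* (serglycin), an intracellular proteoglycan of secretory granules, was higher (2.08) and *SDC3*, a syndecan of nerve and muscle, lower (−0.95). The core proteins that were low in HCC1806 thus included a further syndecan and glypican beside *SDC2*, *GPC4* and *GPC6*, the glypican being *GPC2* (−0.72), named after its value was seen.

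Among the enzymes that build the chain, 0 of 8 were higher and 3 lower. *XYLT1* adds the first xylose to the core protein and averaged 4.12 ± 0.72 in HCC1806 and 7.54 ± 0.16 in HCC1395 (SD, n = 3 each), a difference of −3.42 (limma, adjusted p = 5.93e-08). *EXT1*, a subunit of the heparan sulfate polymerase, averaged 9.11 ± 0.08 and 10.54 ± 0.04 in the same order, a difference of −1.43 (limma, adjusted p = 1.93e-08). The third was *EXTL1*, a related glycosyltransferase, at −2.29. The median of the 8 was 0.14, so the called genes and the rest of the list lay on opposite sides of 0.

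Of 12 other chain-modifying enzymes 2 were higher and 1 lower, with a list median of 0.01. *HS3ST3B1*, a 3-O-sulfotransferase, averaged 8.27 ± 0.37 in HCC1806 and 5.33 ± 0.10 in HCC1395 (SD, n = 3 each), a difference of 2.95 (limma, adjusted p = 2.07e-08). *HS3ST1*, the 3-O-sulfotransferase that makes the antithrombin site, was at 0.71 and *HS2ST1*, the 2-O-sulfotransferase, at −1.13. Of 6 genes for precursors and sulfate supply, *GFPT1*, which starts hexosamine synthesis, was higher (1.16), while *PAPSS1*, which makes the sulfate donor, and *UAP1*, which makes UDP-N-acetylglucosamine, were lower (−1.40 and −0.81), with a list median of −0.31. The enzymes of 6-O, 3-O and 2-O sulfation thus did not share a direction between the lines.

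*SULF2*, a secreted sulfatase that removes 6-O-sulfates from finished chains, averaged 6.33 ± 0.35 in HCC1806 and 10.07 ± 0.07 in HCC1395 (SD, n = 3 each). The difference of −3.75 (limma, adjusted p = 3.21e-10) ran opposite to that of *HS6ST1*, which adds those sulfates. It was 1 of 2 lower among 10 genes of trimming and shedding, the other being the sheddase *ADAM10* (−0.68), and 0 were higher, with a list median of −0.19. All 4 measured lysosomal enzymes that break the chain down were lower in HCC1806: *ARSG* (−1.87), *HGSNAT* (−1.45), *SGSH* (−1.20) and *IDS* (−0.99). These 4 of 9 listed genes had adjusted p-values between 4.35e-08 and 3.24e-05 (limma) and a median of −1.33.

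Of 11 measured partners of syndecans and glypicans, 2 were lower and 0 higher in HCC1806, with a list median of −0.57. They were *LRP1*, an endocytic receptor (−1.93), and *TIAM1*, a Rac exchange factor (−1.31). Fibroblast growth factor (FGF) signalling depends on heparan sulfate as a co-receptor, and 5 of its 14 measured genes were higher and 3 lower, with a list median of 0.12. *FGFBP1*, a secreted carrier of FGFs, averaged 8.89 ± 0.07 in HCC1806 and 4.44 ± 0.21 in HCC1395 (SD, n = 3 each), a difference of 4.45 (limma, adjusted p = 3.99e-10). *DUSP6*, an ERK phosphatase (2.47), and the receptor *FGFR3* (1.48) were higher as well, and the receptor *FGFR1* was lower (−1.91). The FGF receptors thus ran in both directions.

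Chondroitin sulfate shares the linker sugars and the sulfate donor with heparan sulfate, and 3 of its 15 genes were higher and 7 lower, with a list median of −0.66. *CHSY1* (−2.53) and *CHPF2* (−2.21), of the polymerising complex, *CSGALNACT2* (−2.19), which starts the chain, and *CHST3* (−1.44), a 6-O-sulfotransferase, were lower in HCC1806. Neighbours on the chromosome were counted to place the X-linked members, since *HS6ST2*, *GPC4* and *GPC3* lie close together at Xq26. Of 12 measured neighbours, with a list median of −0.16, 3 were lower and 0 higher, namely *MBNL3* (−2.67), a splicing regulator, *PHF6* (−0.85), a chromatin protein, and *FRMD7* (−0.91, with both control groups under the array median). Of 4 measured neighbours of *GPC6* at 13q31 (list median −0.05) none passed in either direction.

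**Figure D5:**
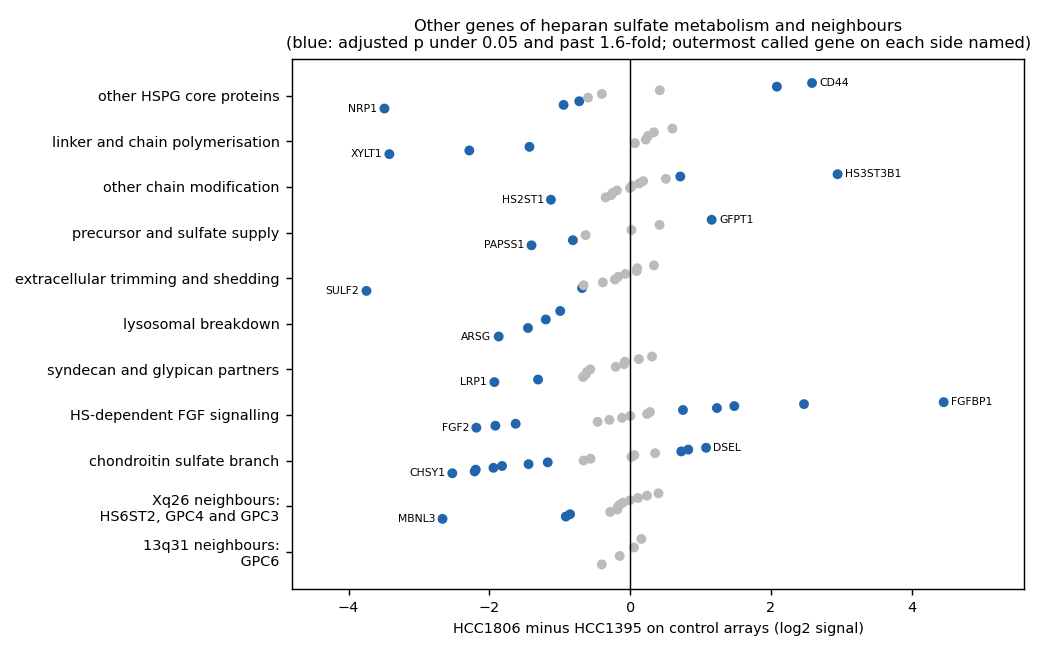
Difference in log2 signal between HCC1806 and HCC1395 on control arrays for the 103 measured genes of 11 lists (points; blue, adjusted p under 0.05 and past 1.6-fold), with the outermost called gene on each side named. SULF2 (−3.75), NRP1 (−3.49) and XYLT1 (−3.42) lie furthest left and FGFBP1 (4.45) furthest right.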

How the data were processed

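Cells of both TNBC lines were profiled on Affymetrix Human Gene 2.0 ST arrays, 3 per group. The authors deposited log2 signals, which their processing notes credit to RMA and the Affymetrix Expression Console without a version. The sources used here do not give the genome build. No normalization was added.

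Gene symbols came from the platform table (1 symbol for 16098 transcript clusters, none for 37519). Each line's 9 arrays were fitted together for GapmeR comparisons, and all 18 for comparisons between lines, with limma's two-sided moderated test (limma 3.58.1, R 4.3.3), and Benjamini-Hochberg adjustment ran over the 53617 transcript clusters. For genes of the lists the brightest transcript cluster was taken. Named genes are all members, up to 4 genes per list with the smallest p on control arrays among those called, and the 5 genes nearest in pattern to *GPC6* and *HS6ST2*. Members and lists were chosen with earlier results of these data known. The scripts were tested on simulated data. Promoters were read in Python 3.11.15 (pandas 2.3.3), and matplotlib 3.10.9 drew the figures. Alternatives covered normalization, dim transcript clusters, variance model, arrays in the fit, replicate numbers, fold threshold and each array left out.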

Additional observations from a re-analysis of the deposited data

Results flagged for a closer look

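*SDC4*, the syndecan of focal adhesions, ran opposite ways in the lines with the GapmeRs. In HCC1806 all 6 GapmeR arrays were above the mean of the controls, and in HCC1395 all 6 were below it. Of 53617 transcript clusters, 675 (1.26%) had all 6 arrays on opposite sides in the lines, in either orientation. The share with the orientation of *SDC4* was not counted. The difference between the lines was 0.23 (SE 0.12, HCC1806 minus HCC1395), and *SDC4* was among the genes chosen with these contrasts known, so it carries no test. The signal moved by at most 0.18 on the log2 scale with either GapmeR.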

How the results depend on the processing

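With 1 setting changed at a time, the count of family transcript clusters past the threshold between the lines (5, with *GPC6* counted) ran between 4 and 5. That of genes of the lists, chromosomal neighbours included (43), ran between 32 and 51, and both counts were lowest at 2-fold. The alternatives run were other normalization, a filter on the dimmest 40%, other variance models, other arrays in the fit, other fold thresholds and each array left out. A few line differences near 0 turned sign: *GPC1* cluster 16910150 was 0.017 with the replicate block, 0.036 over all groups of a line and between −0.12 and 0.063 with 1 array left out (above 0 without HCC1806 control replicate 1 or HCC1395 control replicate 2) and over all groups of a line *SDC4* was 0.073. The *HS6ST2* difference of 0.39, which carries no test, also turned sign, to −0.037 over all groups of a line. That mean takes in the HCC1806 GapmeR arrays on which the gene was picked as lower, so it is no check of the control arrays. The family's counts past 1.6-fold in HCC1806 (1 with each GapmeR and with both) were 0 at 2-fold, as was that of GapmeR 1 in HCC1395. With both GapmeRs in HCC1395 the count was 1 after quantile normalization and at 1.5-fold, where *GPC6* at 1.59-fold crosses. With 1 array left out, the counts ran between 0 and 1 in HCC1806 for GapmeR 1 (0 without its replicate 2), GapmeR 2 (0 without its replicate 2 or control replicate 1) and both (0 without control replicate 1), and between 0 and 1 with both in HCC1395 (1 without GapmeR 1 replicate 3, GapmeR 2 replicate 2 or 3, or control replicate 1 or 2). The count of genes of the lists with both GapmeRs in HCC1806 ran between 0 and 1 (1 without GapmeR 1 replicate 3 or control replicate 1). Fitting all 18 arrays together gave 1 adjusted call over all transcript clusters with both GapmeRs in HCC1395 in place of 0. Same-numbered arrays correlated at −0.01 to 0.09 in HCC1806 and −0.00 to 0.11 in HCC1395 in their deviations. Differently numbered arrays correlated at −0.09 to 0.02 and −0.10 to 0.08 in the same order. Arrays of the same number may thus share some variation, which the main fits left out because they did not take the numbers as pairs. With the replicate number as a block, 10517 transcript clusters differed between the lines, against 11002 without it, and 9298 were in both counts. With the block the single adjusted call between the GapmeRs in HCC1806 was lost (0 in place of 1), and each GapmeR comparison with control had 0 calls, as without it. The absence of a detection call limits *GPC6*, *GPC4*, *SDC2*, *GPC3* and *HS6ST2* wherever they lie near the array median. The same limit holds for list genes at such signals, among them *XYLT1*, *EXTL1* and *FGFR1* in HCC1806 and *FGFBP1* in HCC1395.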

Other observations

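The genes nearest to *GPC6* in pattern over the 18 arrays, by root mean square distance of log2 signals after each line's mean was subtracted, were *FRRS1L* (0.228), *THBS2* (0.235), *ADCK1* (0.238), *POM121L12* (0.241) and *C8orf34* (0.242), where *GPC6* itself had a root mean square of 0.350. With both GapmeRs *THBS2*, which encodes thrombospondin-2, was at 0.08 in HCC1806 and −0.30 in HCC1395. Nearest to *HS6ST2* were *ACACA* (0.179), *TXNRD3* (0.180), *GPHN* (0.183), *IMMP2L* (0.184) and *CDK14* (0.188), with 0.330 for *HS6ST2* itself. *ACACA*, acetyl-CoA carboxylase of fatty acid synthesis, was at −0.68 in HCC1806 and −0.14 in HCC1395. These genes were picked for their likeness, so the values are descriptions.

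The antisense transcripts of the leading genes were read as well, chosen after the values of their partners were seen. *HS6ST2-AS1* was at 0.02 (SE 0.12) with both GapmeRs in HCC1806, where *HS6ST2* was at −0.77. *GPC6-AS2* was at 0.21 (SE 0.09) in HCC1395, where *GPC6* was at −0.67, with all of its signals between 1.35 and 1.98 and under the array medians.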
